A study of Mus musculus with 6 samples.

Results

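Costimulatory receptors are the surface proteins that deliver the accessory signals a T cell needs, beside its antigen receptor, to divide, survive and become a killer cell. The 10 genes described here encode CD28, ICOS, CD27, OX40 (Tnfrsf4), CD137 (Tnfrsf9), GITR (Tnfrsf18), CD226, Slamf6, Slamf7 and CD2. They were chosen by name for their family and function, with earlier results of these data known, from 25654 Ensembl gene identifiers measured in 6 libraries. All 10 passed the filter on low values, which asked for 1 CPM or more on average. RNA came from CD8 T cells of the spleens of wild-type female C57BL/6 mice, taken at 6 weeks of age (young, 3 libraries) or around 65 weeks of age (aged, 3 libraries). The cells of both groups had received the same treatment: 2 days on plates coated with antibodies to TCR-β (3 µg/ml) and to CD28 itself (1 µg/ml) with interleukin 2 at 10 ng/ml, then 5 days in interleukin 2 alone. Libraries are labelled as biological replicates without a statement that separate mice were used, and the p-values therefore describe library-to-library spread. Culture conditions that differed between the groups, if any, cannot be told apart from age.

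As background, the receptors belong to several families. CD28 and ICOS, of the immunoglobulin superfamily, recruit phosphoinositide 3-kinase through a short motif in their tails, and CD28 shares its ligands with the inhibitory receptor CTLA-4. CD27, OX40, CD137 and GITR belong to the TNF receptor superfamily and signal through TRAF adaptors to NF-κB. CD2, Slamf6 and Slamf7 are relatives that bind either a family member on the next cell or themselves, and the SLAM receptors signal through small adaptors such as SAP. CD226 competes with the inhibitory receptors TIGIT and CD96 for nectin-like ligands. CD28 and CD27 are present on resting T cells, whereas OX40, CD137, GITR and ICOS are known as receptors that activation induces.

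Of the 10 receptors, 5 were lower in aged cells and 0 were higher (limma, Benjamini-Hochberg adjusted p under 0.05 over all 10511 genes tested), where 28.7% of all genes tested were called in either direction, 12.5% lower and 16.2% higher. With TMM scaling 6 were lower, where 14.8% of all genes were called lower and 13.6% higher. The 5 were Slamf6, Cd27, Cd2, Cd28 and Tnfrsf18. In 6 receptors, these 5 and Slamf7, every aged library lay below every young library, as it did in 18.3% of all genes tested. The median log2 fold change of the 10 was -0.28, against 0.03 over all genes tested. Every log2 fold change was taken as the aged minus the young mean of log2(CPM + 1), a scale that makes changes of low genes look smaller. CPM are reads scaled to a common library total, and since the libraries count transcript ends they do not grow with gene length.

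**Figure D1:**
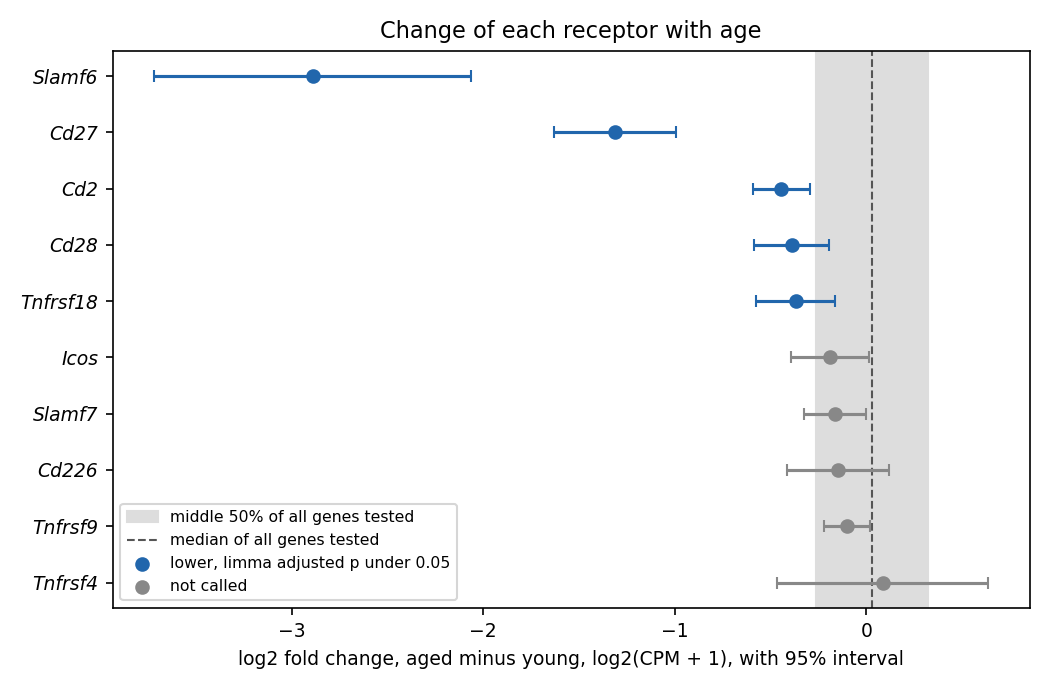
Log2 fold change of each receptor (aged minus young, on log2(CPM + 1)) with its 95% interval from limma, for 3 young and 3 aged libraries. Blue points are lower in aged cells at an adjusted p under 0.05 and grey points are not called. The grey band spans the middle 50% of all genes tested, from -0.26 to 0.32. Slamf6 at -2.89 and Cd27 at -1.31 lie farthest to the left.

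Promoter sequences are shown for a pair of SLAM receptors and a pair of TNF receptors, since in each pair the first fell in aged cells and the second was not called. Each run is the 250 bases before a transcription start in RefSeq (GRCm38.p6), 5′ to 3′ on the strand of the gene, and 6 of the 10 receptors had an entry in that table. Slamf6 lies at chr1:171917212-171917461 (plus strand), Slamf7 at chr1:171649000-171649249 (minus strand), Cd27 at chr6:125237028-125237277 (minus strand) and the downstream start of Tnfrsf9 at chr4:150927749-150927998 (plus strand). Capitals mark matches to any of the motifs searched.
Slamf6: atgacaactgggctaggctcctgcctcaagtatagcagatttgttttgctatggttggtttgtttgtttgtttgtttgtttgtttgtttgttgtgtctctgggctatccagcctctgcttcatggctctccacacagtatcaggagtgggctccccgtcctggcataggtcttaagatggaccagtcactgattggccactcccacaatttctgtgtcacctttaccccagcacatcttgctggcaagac
Slamf7: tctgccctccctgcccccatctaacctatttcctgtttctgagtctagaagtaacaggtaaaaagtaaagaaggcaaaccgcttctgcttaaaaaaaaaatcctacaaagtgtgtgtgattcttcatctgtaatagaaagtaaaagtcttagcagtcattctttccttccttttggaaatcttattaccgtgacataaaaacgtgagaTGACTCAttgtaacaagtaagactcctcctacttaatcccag
Cd27: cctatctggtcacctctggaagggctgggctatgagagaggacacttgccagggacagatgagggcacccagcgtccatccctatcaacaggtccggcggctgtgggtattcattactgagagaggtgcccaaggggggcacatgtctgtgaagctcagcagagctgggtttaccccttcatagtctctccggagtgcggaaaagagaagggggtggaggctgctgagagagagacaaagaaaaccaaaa
Tnfrsf9: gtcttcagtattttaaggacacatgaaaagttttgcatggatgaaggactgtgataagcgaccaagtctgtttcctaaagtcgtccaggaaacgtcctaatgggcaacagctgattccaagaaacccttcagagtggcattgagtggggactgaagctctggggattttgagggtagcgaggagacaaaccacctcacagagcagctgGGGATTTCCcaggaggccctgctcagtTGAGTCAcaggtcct
The motifs searched, on both strands, were the letters of sites for NF-κB (GGGANTTCC), AP-1 (TGANTCA), TCF and LEF factors (CTTTGA), ETS (CCGGAA), RUNX (TGTGGT) and KLF (CCACACCC). In the window of Tnfrsf9 a match to the NF-κB motif began 42 bases before the start and an AP-1 match 15 bases before it. The window of Slamf7 held an AP-1 match that began 42 bases before its start. The windows of Slamf6 and Cd27 held no match to any of these letters, nor did that of Tnfrsf4. For Slamf6 and Tnfrsf4 the bases just after the RefSeq start were not found in a GENCODE transcript of the gene, unlike those of the other windows. The upstream start of Tnfrsf9 had a TCF and LEF match and that of Tnfrsf18 an ETS match, and no matches overlapped. Among 32851 windows of the same length in the table, the NF-κB motif was found in 1.431%, AP-1 in 6.749%, TCF and LEF in 13.83%, ETS in 12.03%, RUNX in 14.05% and KLF in 3.196%. These matches are a description of letters and do not show binding.

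Levels of the receptors differed widely. Tnfrsf9 was the most abundant receptor transcript in both groups, at 36.7% to 40.9% of the summed CPM of the 10 in young and 40.9% to 45.6% in aged libraries. In young cells it was followed by Cd2, Icos, Slamf7, Tnfrsf18, Cd28, Cd226, Cd27, Tnfrsf4 and Slamf6, and no receptor's libraries overlapped those of the next in this order. In aged cells the order was Tnfrsf9, Icos, Cd2, Slamf7, Tnfrsf18, Cd28, Cd226, Tnfrsf4, Cd27 and Slamf6. There Icos overlapped Cd2, Cd2 overlapped Slamf7, Tnfrsf18 overlapped Cd28 and Tnfrsf4 overlapped Cd27, so these neighbours were not separated by the spread between libraries. The summed CPM of the 10 was 2345 to 2377 in young and 1948 to 2060 in aged libraries. In these bulk samples fewer cells with a transcript and less transcript per cell cannot be told apart.

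**Figure D2:**
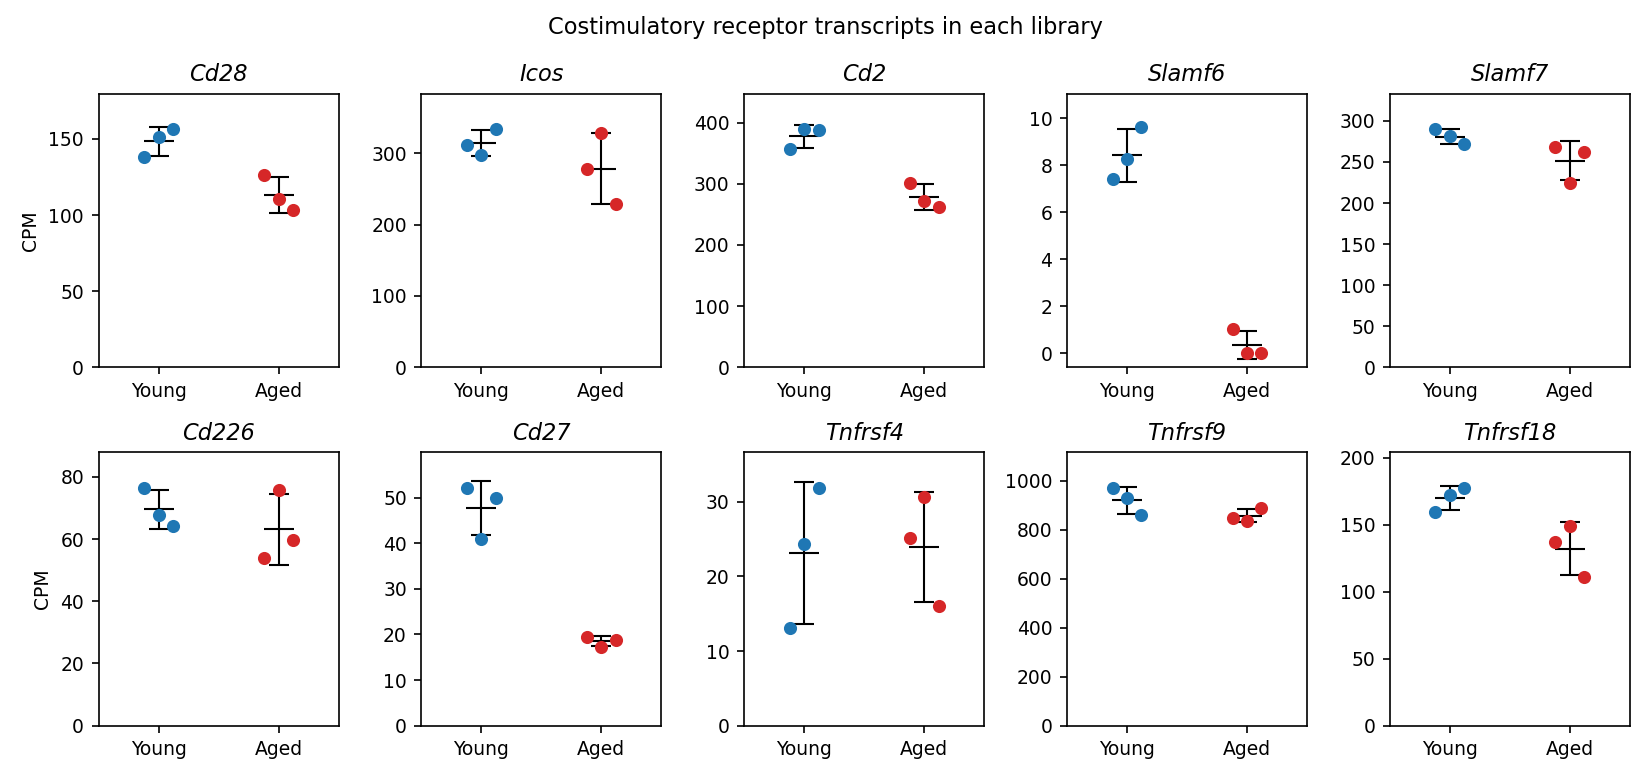
CPM of each receptor in every library (points; blue young, red aged), with the group mean and SD (black), n = 3 per group, on linear axes that differ between panels. The groups are separate for Cd28, Cd2, Slamf6, Slamf7, Cd27 and Tnfrsf18 and overlap for Icos, Cd226, Tnfrsf4 and Tnfrsf9.

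Cd28 (ENSMUSG00000026012, chromosome 1, 60716800 to 60773359, GRCm38), the receptor for CD80 and CD86 that the plate-bound antibody engaged, was lower in aged cells. Young replicates 1, 2 and 3 had 138, 151 and 156 CPM, and Aged replicates 1, 2 and 3 had 126, 111 and 103 CPM; values of other genes follow the same order. All aged libraries lay below all young ones, though the nearest pair, Aged replicate 1 and Young replicate 1, was close. The group values were 148 ± 9.57 and 113 ± 11.7 CPM (SD, n = 3 per group), 1.31-fold lower in aged cells (log2 fold change -0.39 ± 0.09 SE, limma adjusted p = 0.00348).

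Icos (ENSMUSG00000026009, chromosome 1, 60977927 to 61000320), the inducible relative of CD28, did not pass the test. Its values were 312, 298 and 334 CPM in young and 278, 329 and 229 CPM in aged libraries. Aged replicate 2 lay among the young libraries and the other aged libraries below them, so the spread was wider in the aged group (279 ± 49.9 CPM, against 315 ± 18.0 in young). The log2 fold change was -0.19, with a 95% interval of -0.39 to 0.01 and a limma adjusted p of 0.159. Without Aged replicate 2 it was -0.32 and called (limma adjusted p = 0.00977), and without Aged replicate 3 it was -0.06.

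Between Cd28 and Icos on the same strand lies Ctla4 (chromosome 1, 60887000 to 60915832), which encodes the inhibitory receptor that competes with CD28 for its ligands. The 3 genes span 284 kb, and the gaps between neighbours are 114 and 62.1 kb. Ctla4 had a far larger log2 fold change than either neighbour, -2.60 (limma adjusted p = 4.52e-09). The ratio of Cd28 to Ctla4 CPM was 1.67, 1.43 and 2.07 in young and 10.3, 9.63 and 5.92 in aged libraries. The ratio of Icos to Ctla4 was 2.83 to 4.41 in young and 13.2 to 28.6 in aged libraries. Both ratios were higher in all 3 aged libraries than in any young one. For each, an exact permutation test (two-sided) gave p = 0.1, the smallest that 3 against 3 allows, and adjustment over the 3 ratios computed left it at 0.1. These ratios were chosen after the values were seen. Other relatives did not pass: the log2 fold change was -0.07 for Pdcd1 (PD-1), -0.12 for Cd274 (PD-L1) and -0.07 for Pdcd1lg2 (PD-L2), and Btla was below the filter.

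**Figure D3:**
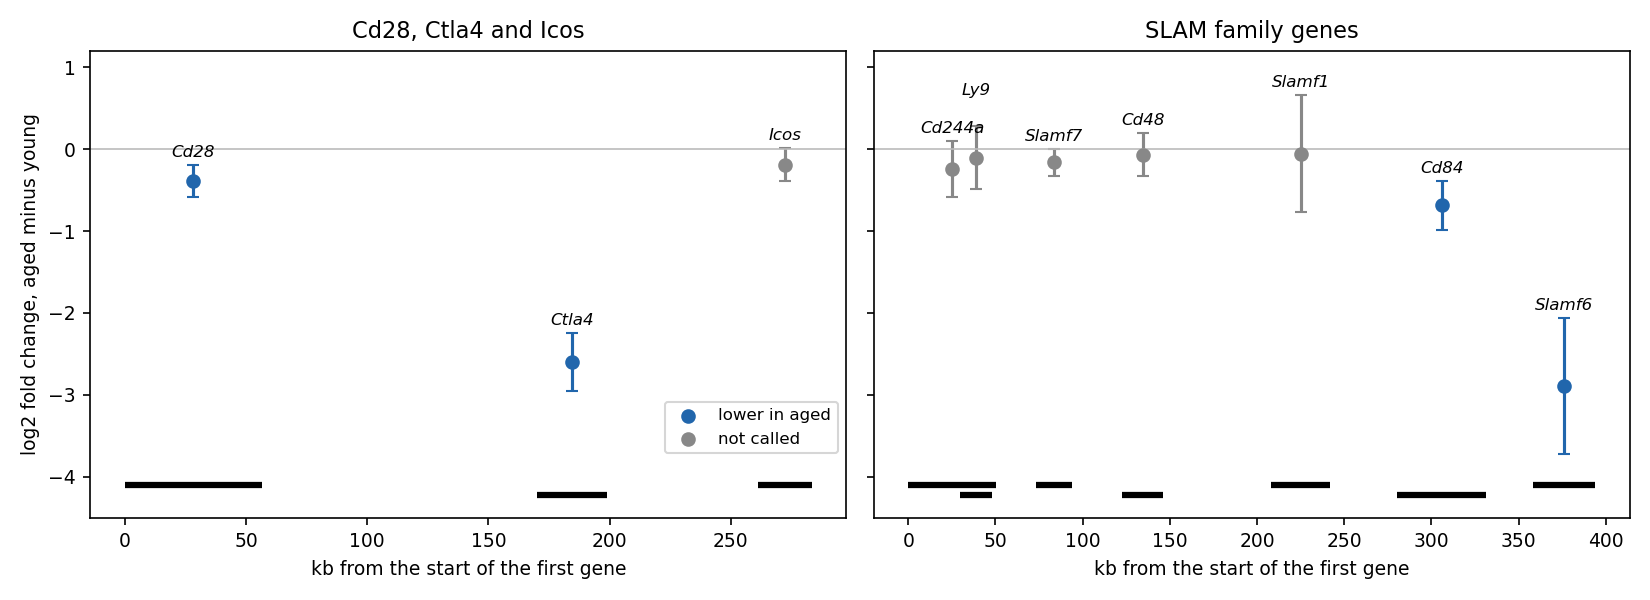
Log2 fold change with its 95% interval (limma, 3 young and 3 aged libraries) against position in kb from the start of the first gene, for the Cd28, Ctla4 and Icos genes (left) and the SLAM family genes (right). Black bars show each gene's extent. Blue points are called lower. Ctla4 at -2.60 lies between Cd28 at -0.39 and Icos at -0.19, and Slamf6 at -2.89 lies at the end of the SLAM cluster beside Cd84 at -0.69.

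Slamf6 (ENSMUSG00000015314, chromosome 1, 171917515 to 171953170), a self-binding receptor known as a marker of T cells that keep memory potential, showed the largest log2 fold change of the 10. It was at 7.39, 8.26 and 9.61 CPM in young libraries and at 1.02, 0 and 0 CPM in aged libraries. Reads were found in every young library and in Aged replicate 1 alone among the aged. This rests on 65 reads in the young group and 2 in the aged group, and with 0 reads seen, as many as 3 reads remain possible (up to 1.41 CPM in Aged replicate 3). Such limits and intervals cover counting error only, since the reads carry no molecular identifiers. The pooled ratio was 28.3-fold lower in aged cells, with an exact 95% interval of 7.52 to 238. On the log2 scale the change was -2.89 ± 0.40 (SE), with a limma adjusted p of 1.80e-05. Its size depended on the pseudocount, at -5.24 with a pseudocount of 0.1 and -1.33 with 5, and it was called with each.

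Slamf7 (ENSMUSG00000038179, chromosome 1, 171632403 to 171653035), a SLAM receptor of effector T cells and natural killer cells, was far more abundant and did not pass the test. Its values were 290, 281 and 272 CPM in young and 268, 225 and 262 CPM in aged libraries. The groups did not overlap, by a margin of a few CPM between Aged replicate 1 and Young replicate 3. The log2 fold change was -0.16 (95% interval -0.32 to -0.00313; limma adjusted p = 0.122). It was called with TMM scaling (-0.22, limma adjusted p = 0.0384), RLE scaling (-0.21, 0.0416), edgeR's quasi-likelihood test (-0.22, adjusted p = 0.0378) and limma-voom (-0.22, 0.0317). An exon of the gene model Gm37787 overlaps it on the other strand, which leaves its value uncertain if the counting ignored strand.

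Slamf6 and Slamf7 lie in a cluster of 7 SLAM family genes over 394 kb of chromosome 1. In the order of the chromosome the log2 fold changes were -0.25 for Cd244a, -0.10 for Ly9, -0.16 for Slamf7, -0.07 for Cd48, -0.06 for Slamf1, -0.69 for Cd84 and -2.89 for Slamf6. The genes called lower were thus the last pair, Cd84 and Slamf6, which are separated by 26.8 kb. Cd84, another self-binding receptor, was at 50.4, 49.5 and 39.6 CPM in young and 29.7, 27.6 and 27.8 CPM in aged libraries (limma adjusted p = 0.001). Outside the cluster, Slamf8 and Slamf9 were at 0 in all libraries.

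Cd2 (ENSMUSG00000027863, chromosome 3, 101275899 to 101287939), an adhesion and costimulatory receptor that in mice binds CD48, was lower in aged cells. Its values were 356, 389 and 389 CPM in young and 302, 271 and 262 CPM in aged libraries. The lowest young library stood clear of the highest aged one. The group values were 378 ± 18.9 and 278 ± 21.1 CPM (SD, n = 3 per group), 1.36-fold lower in aged cells, with a log2 fold change of -0.44 ± 0.07 (SE) and a limma adjusted p of 0.000107. Cd48, which encodes its ligand, did not pass. Its young mean was 108 ± 9.99 CPM and its aged mean 105 ± 23.6 CPM (SD over 3 libraries each; log2 fold change -0.07, 95% interval -0.32 to 0.19).

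Cd226 (ENSMUSG00000034028, chromosome 18, 89176967 to 89272229), the activating receptor for CD155, was not separated by age. It was at 76.5, 67.8 and 64.2 CPM in young and at 53.8, 75.9 and 59.8 CPM in aged libraries. Aged replicate 2 lay just under the highest young library, and the other aged libraries were below the young range. The log2 fold change was -0.15 (95% interval -0.41 to 0.12; limma adjusted p = 0.428). Cd96, its inhibitory competitor, was at 53.5 to 57.0 CPM in young and 42.9 to 49.2 CPM in aged libraries, with a log2 fold change of -0.27 that did not pass (limma adjusted p = 0.102) and was called with TMM and RLE scaling, edgeR and limma-voom. Tigit was below the filter, at no more than 1.74 CPM in any library, so a change in it was not detectable at this depth. Crtam and Pvrig did not pass (log2 fold changes -0.26 and 0.05).

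Cd27 (ENSMUSG00000030336, chromosome 6, 125232622 to 125237010), the TNF receptor family member of resting and memory T cells that binds CD70, was lower in aged cells. Its values were 52.2, 40.9 and 49.95 CPM in young and 19.5, 17.3 and 18.8 CPM in aged libraries. Every young library held more than every aged one, and the aged libraries lay close together. The group values were 47.7 ± 5.96 and 18.5 ± 1.14 CPM (SD, n = 3 per group), 2.58-fold lower in aged cells, with a log2 fold change of -1.31 ± 0.15 (SE) and a limma adjusted p of 2.89e-06. An exon overlaps the microRNA gene Mir8113 on the same strand, so its reads could be divided with that gene.

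Tnfrsf9 (ENSMUSG00000028965, chromosome 4, 150914562 to 150946102), which encodes CD137, a receptor induced by activation, was high in all libraries. It was at 972, 929 and 861 CPM in young and at 850, 835 and 888 CPM in aged libraries. Aged replicate 3 lay above Young replicate 3, so the groups overlapped. The log2 fold change was -0.10 (95% interval -0.22 to 0.02; limma adjusted p = 0.21). The ratio of Tnfrsf9 to Cd27 CPM was 18.6, 22.7 and 17.2 in young and 43.7, 48.4 and 47.2 in aged libraries. It was higher in all 3 aged libraries (exact permutation test, two-sided, p = 0.1, adjusted over the 3 ratios 0.1). This p is the smallest that 3 against 3 allows, and this ratio too was chosen after the values were seen. Since Cd27 was called lower and Tnfrsf9 was not called, the ratio adds no evidence beyond the change of Cd27.

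Tnfrsf4 and Tnfrsf18 are neighbours on chromosome 4 (156013843 to 156016612 and 156026164 to 156028895), 9.55 kb apart. Tnfrsf18 (ENSMUSG00000041954), which encodes GITR, was at 160, 172 and 178 CPM in young and at 137, 149 and 111 CPM in aged libraries. All aged libraries were below all young ones, Aged replicate 3 the farthest. The log2 fold change was -0.37 ± 0.10 (SE; limma adjusted p = 0.00819), or 1.28-fold lower in aged cells, and without Aged replicate 3 it was -0.25 and no longer called (limma adjusted p = 0.055). Exons of Gm16008 overlap it on the other strand. Tnfrsf4 (ENSMUSG00000029075), which encodes OX40, was at 13.0, 24.4 and 31.9 CPM in young and at 25.1, 30.7 and 16.001 CPM in aged libraries. The groups overlapped along nearly their whole ranges, and the estimate was loose: a log2 fold change of 0.09 with a 95% interval of -0.46 to 0.64 (limma adjusted p = 0.85). Its sign turned without Young replicate 1 (-0.26), without Aged replicate 2 (-0.11) and with edgeR (-0.00386).

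**Figure D4:**
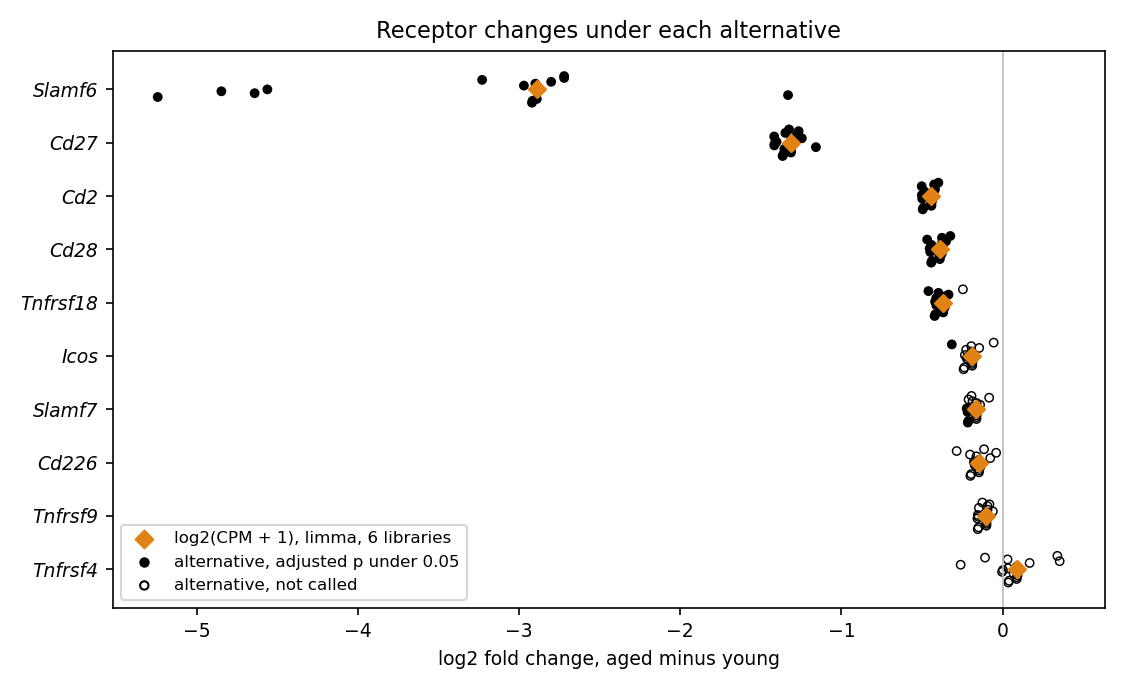
Log2 fold change of each receptor under 16 alternatives (circles; filled where the adjusted p was under 0.05) and in limma on log2(CPM + 1) over 6 libraries (orange diamonds). Slamf6 has 15 circles, since a mean of at least 5 CPM leaves it out. Circles of Slamf6, Cd27, Cd2 and Cd28 are all filled, and those of Tnfrsf4 lie on both sides of 0.

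Ligand genes other than Cd48 were at low levels in these cultures, and Cd48 was at 89.4 to 132 CPM. Of the 10 ligand genes 5 passed the filter, of which 1 was called lower and 0 higher (median log2 fold change -0.08). Over all genes tested the shares were 12.5% lower and 16.2% higher. Pvr, which encodes CD155, the ligand of CD226, was at 28.3, 26.9 and 15.8 CPM in young and 10.2, 8.82 and 9.41 CPM in aged libraries, 2.49-fold lower in aged cells (log2 fold change -1.19, limma adjusted p = 0.00058). Cd80, a ligand of CD28, was at 3.95 to 9.61 CPM in young and 0.941 to 6.15 CPM in aged libraries and did not pass (log2 fold change -1.13, limma adjusted p = 0.0598). It was called with TMM scaling (-1.17), with limma-voom (-1.54) and without Aged replicate 1 (-1.70). Icosl and Tnfsf9, the ligands of ICOS and CD137, were at 2.31 to 5.65 CPM over both genes and did not pass (0.09 and -0.08). Cd86, Cd70, Tnfsf4 and Nectin2 were at no more than 1.79 CPM in any library, and Tnfsf18 was at 0 in all.

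Among other TNF receptor superfamily genes, 1 of 4 tested was called lower and 0 higher, where 12.5% of all genes tested were lower and 16.2% higher. Tnfrsf13b, which encodes TACI, a receptor best known on B cells, was at 38.7, 39.1 and 41.5 CPM in young and 18.9, 18.0 and 13.2 CPM in aged libraries (log2 fold change -1.22, limma adjusted p = 2.06e-05). Tnfrsf1a, Tnfrsf1b and Tnfrsf8 (CD30) did not pass, with -0.49, -0.21 and 0.22 on the log2 scale. Tnfrsf1a was called lower with TMM (-0.54), RLE (-0.54) and edgeR (-0.58), and without Young replicate 2 (-0.68) or Aged replicate 3 (-0.60). Tnfrsf1b was called lower with TMM (-0.27), RLE (-0.26), edgeR (-0.27) and limma-voom (-0.27). Cd40 was at 0 in all libraries.

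Over 4 lists of signalling genes below these receptors, 17 of 61 tested genes (27.9%) were called in either direction, beside 28.7% of all genes tested. Each list held at least as many lower as higher calls. Over all genes tested 12.5% were lower and 16.2% higher, but with TMM scaling 14.8% were lower and 13.6% higher. Of 18 tested genes of TRAF and TNF receptor signalling 2 were higher, 2 lower and 14 not called, with a median log2 fold change of -0.05. Traf1, an adaptor that binds CD137 and other TNF receptors, was at 92 to 113 CPM in young and 69.7 to 85.7 CPM in aged libraries (log2 fold change -0.44, limma adjusted p = 0.00441). Tnip1, an inhibitor of NF-κB signalling, was also lower (-0.35), and Siva1, which binds the tail of CD27, and the kinase gene Chuk were higher (0.47 and 0.58), but each of these 3 lost its call with DESeq2 and without at least 1 single library. For Siva1 that was Young replicate 2, for Chuk Young replicates 1 and 3 and Aged replicate 3, and for Tnip1 each of Young replicates 2 and 3 and each of Aged replicates 1 and 2. The log2 fold changes were then 0.37 for Siva1, 0.61, 0.47 and 0.46 for Chuk and -0.31, -0.27, -0.35 and -0.29 for Tnip1. Among 10 genes of NF-κB subunits and inhibitors only Nfkbia, the inhibitor that NF-κB itself induces, was called. It was at 143, 125 and 165 CPM in young and 71.7, 70.2 and 72.0 CPM in aged libraries, 2.03-fold lower in aged cells (limma adjusted p = 6.66e-07). Nfkbib, Nfkbiz and Nfkbid did not pass (0.23, 0.54 and 0.51).

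In the list of CD28 and ICOS signalling genes, 3 of 22 tested genes were higher and 4 lower, with a median of -0.06. Of all genes tested 16.2% were higher and 12.5% lower. The lower genes included Prkcq, a kinase that relays CD28 and antigen receptor signals (log2 fold change -0.47, limma adjusted p = 0.00246), and Pik3cg, a phosphoinositide 3-kinase subunit (-0.40, limma adjusted p = 0.00657). Akt1, a kinase activated by phosphoinositide 3-kinase, was higher, at 183 to 206 CPM in young and 250 to 267 CPM in aged libraries (0.41, limma adjusted p = 0.000324). Grb2, named after its values were seen, was higher too (0.23). It lost its call with TMM, RLE, edgeR, DESeq2 and limma-voom and without Aged replicate 3. The groups did not overlap for Prkcq, Pik3cg or Akt1. The other phosphoinositide 3-kinase subunits listed were named after their values were seen. Pik3cb was higher (1.05) and Pik3r1 lower (-0.24), and Pik3cd, Pik3ca and Pik3r2 were not called (0.02, -0.14 and -0.50). Pik3cb lost its call with DESeq2 and without Aged replicate 3, and Pik3r1 without Young replicate 1 or 2 or Aged replicate 1 or 2.

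Adaptors of SLAM receptors and CD2 had 5 of 11 tested genes lower and 0 higher, with a median of 0.03. The shares over all genes tested were 12.5% lower and 16.2% higher. Sh3kbp1, an adaptor related to the CD2-binding protein Cd2ap, was at 290 to 307 CPM in young and 183 to 197 CPM in aged libraries (log2 fold change -0.64, limma adjusted p = 1.62e-06). Ptpn6, which encodes the phosphatase SHP1, fell by 0.62 on the log2 scale. Fyn, the kinase that SAP recruits, and Pstpip1, which binds the tail of CD2, were at -0.26 and -0.23 and called. Fyn lost its call without Young replicate 2 or Aged replicate 2 (-0.21 and -0.22), and Pstpip1 lost it on leaving out Young replicate 2 or 3 or Aged replicate 3 (-0.20, -0.21 and -0.17). The gene of SAP itself, Sh2d1a, named after its values were seen, was at 17.3 to 25.1 CPM in young and 11.9 to 14.1 CPM in aged libraries. Its log2 fold change of -0.59 (limma adjusted p = 0.0361) was no longer called with DESeq2, with no filter on low values, or on leaving out Young replicate 1, Young replicate 2, Aged replicate 1 or Aged replicate 2 (-0.65, -0.43, -0.59 and -0.54).

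**Figure D5:**
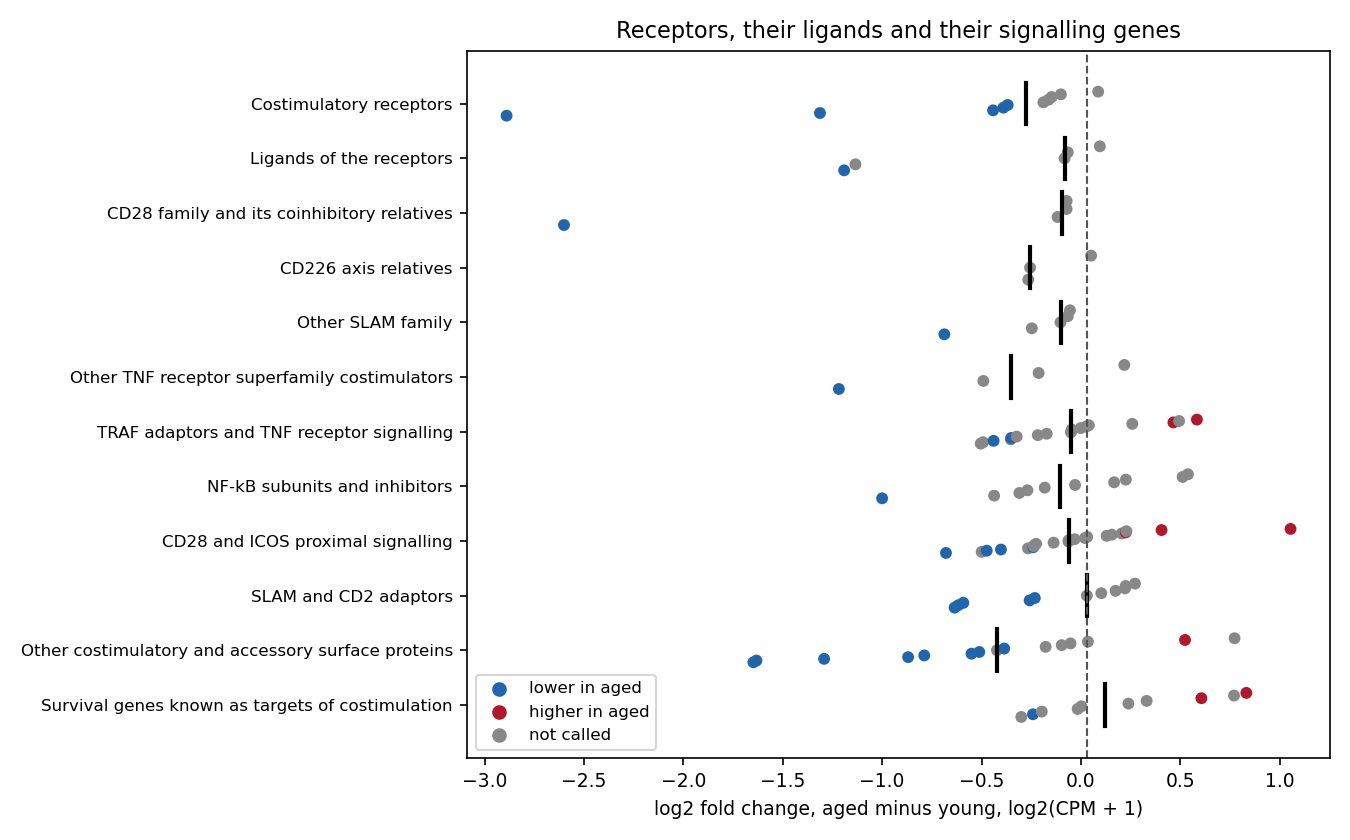
Log2 fold change (aged minus young, log2(CPM + 1)) of each tested gene in the receptor list and in 11 lists of ligands, relatives, signalling genes and targets, with colours for the call by limma. Black ticks are list medians and the dashed line the median of all genes tested. The receptor list has its 5 called genes on the left of the line. So does the list of SLAM and CD2 adaptors, with 5 of 11 tested genes lower and 0 higher. The other signalling lists hold calls on both sides or mostly grey points.

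In the list of other costimulatory and accessory surface proteins 8 of 15 tested genes were lower and 1 higher, with a median of -0.42. Over all genes tested 12.5% were lower and 16.2% higher. Of the 10 receptors 5 were lower, with a median of -0.28, so lower calls were not particular to the receptors. The genes with the smallest p in the accessory list were Cd53 and Cd37, a pair of tetraspanins, Cd44, the hyaluronan receptor of activated T cells, and Klrk1, the receptor NKG2D. Their log2 fold changes were -0.79, -0.39, -0.55 and -0.87, and their aged libraries were all below the young ones. Survival genes known as targets of costimulation were mixed, with 2 of 10 higher, 1 lower and a median of 0.12. Bcl2 was at 742 to 804 CPM in young and 636 to 685 CPM in aged libraries (-0.24, limma adjusted p = 0.0036). Birc5, a survival gene that also rises in dividing cells, was higher (0.83). Myc was higher too (0.61), but lost the call with DESeq2 and on leaving out Young replicate 1 or 2 or Aged replicate 2 or 3 (0.49, 0.54, 0.53 and 0.52). Il2ra, an interleukin 2 receptor chain, was at -0.20 and did not pass (limma adjusted p = 0.0565). It was called lower with TMM (-0.25), RLE (-0.25), edgeR (-0.24), DESeq2 (-0.24) and limma-voom (-0.25), and without Aged replicate 2 (-0.30).

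Markers of the CD8 T cell were present in all libraries and did not all move one way. Of 7 markers 4 were lower and 1 higher, where 12.5% of all genes tested were lower and 16.2% higher. Their summed level was 3015 to 3142 CPM in young and 2727 to 3053 CPM in aged libraries. The CD3 genes Cd3d, Cd3e and Cd3g had log2 fold changes of -0.41, -0.43 and -0.47, and Cd8b1, whose 3′ end is near-identical to stretches of other transcripts, -0.33. Thy1 was higher (0.25), and Cd8a and Cd247, named after their values were seen, did not pass (0.15 and -0.01). Cd8a was called higher without Aged replicate 3 (0.30). The changes of the 4 lower markers lay between -0.47 and -0.33, beside -0.39 for Cd28, -0.44 for Cd2 and -0.37 for Tnfrsf18, and their part in those results was not tested. Of 7 B cell markers Cd79b was the only 1 tested and was lower (-1.86), 5 were at 0 in all libraries, Ms4a1 and Cd79a among them, and the summed level was 2.51 to 9.99 CPM in young and 0 to 1.53 CPM in aged libraries. Of 4 markers of CD4 and regulatory T cells 1 was lower, Zbtb7b (-0.69), and Ikzf2 did not pass (-0.19). Zbtb7b lost its call with DESeq2 (-0.76) and on leaving out Young replicate 1 (-0.63) or 2 (-0.62) or Aged replicate 3 (-0.48). Cd4 was at no more than 0.384 CPM and Foxp3 at no more than 3.07 CPM, and the list summed to 48.8 to 57.3 and 32.2 to 46.6 CPM. Of 6 natural killer cell markers 1 was higher, Fcer1g (0.47), while Klrb1c, Itga2 and Tyrobp did not pass (-0.52, -0.44 and -0.38). Fcer1g lost its call in 9 of 16 alternatives (TMM, RLE, DESeq2, limma-voom, and without each library but Aged replicate 2), with 0.29 to 0.73 over all 16. Klrb1c was called lower with TMM, RLE, edgeR and limma-voom and without Aged replicate 3, with -0.62 to -0.34 over all 16. Ncr1 was at no more than 0.384 CPM, and the list summed to 89.7 to 92.6 and 75.1 to 117 CPM. Of 11 myeloid and dendritic cell markers 2 were lower, Itgam and Cd68 (-1.48 and -0.73), and 5 were at 0 in all libraries, with sums of 18.8 to 29.1 and 13.0 to 25.9 CPM. Itgam lost its call with DESeq2 (-2.82) and on leaving out Young replicate 1 (-1.25) or 3 (-1.38) or Aged replicate 1 (-1.24). Cd68 lost it with no filter (-0.73), with DESeq2 (-0.84) and on leaving out Young replicate 1 (-0.61) or 2 (-0.70) or Aged replicate 1 (-0.61) or 2 (-0.64). Itgax did not pass (0.91), nor did Csf1r, which had 15 reads in Aged replicate 3 and 0 in the other libraries and was called higher with edgeR alone. Slamf6, at 7.39 to 9.61 CPM in young libraries, was within the range of the B cell sum there, and the part of other cell types in its result was not tested. Cd27 was above the B cell sum in every library but below the natural killer cell sum in both groups. It was below the sum for CD4 and regulatory T cells in aged libraries and overlapped its range in young ones. Such sums do not measure the share of a cell type, and the part of other cell types in the Cd27 result was not tested either. Exons on the other strand overlap Cd37, Cd3e, Cd247, Bcl2, Nfkbib, Ptpn6, Sh2d1a, Cd274, Tnfsf9, Nectin2, Pik3r2, Zbtb7b, Ikzf2, Csf1r and Foxp3. Exons on the same strand overlap Cd247, Itgam, Klrb1c and Foxp3. The 3′ ends of Siva1, Grb2 and Foxp3 are near-identical to stretches of other transcripts. The values of all these genes are less certain.

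The genes most alike in pattern were sought for the 3 receptors with the largest change among those averaging 5 CPM or more. The search ran over the 6 libraries and 5558 genes averaging 20 CPM or more. For Cd27 they were Ube2r2, Lef1 and Lbh, for Cd2 they were Rps12, Rplp2 and Dcaf12, and for Cd28 they were Ctla2b, Slfn1 and Cox8a. The likeness (Pearson's r on log2(CPM + 1)) was 0.989 to 0.999, as a description over 6 points that fall into the 2 age groups. All 9 of these genes had lower means in aged cells, for example 147 and 90.4 CPM for Lef1. That direction follows from the search, which sought genes that vary with receptors lower in aged cells.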

How the data were processed

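RNA from 3 young and 3 aged CD8 T cell cultures was made into libraries from 500 ng of total RNA with the QuantSeq 3′ kit, which reads transcript ends, per the labels' protocols. The genome build was GRCm38 (mm10), per the submitters' processing notes. Which aligner and counter were used, and how strand was handled, is not given in the sources used here. CPM per gene and library are the values the authors deposited. All values (100%) were whole multiples of the smallest within 0.001 reads, so whole reads were recovered, 1952552 to 2785915 per library. For 25599 identifiers a symbol was found, and 1 blank identifier was left out. The file of Aged replicate 2 heads its column as replicate 3 and was assigned by the record that ties files to samples.

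The test was limma 3.58.1 (R 4.3.3) with an intensity trend on log2(CPM + 1), two-sided, for genes averaging 1 CPM or more, with Benjamini-Hochberg adjustment over all genes tested. A call was an adjusted p under 0.05. Alternatives were TMM and RLE scaling, no filter, a mean of at least 5 CPM, pseudocounts of 0.1 and 5, edgeR 4.0.16, DESeq2 1.42.0 and limma-voom on recovered reads, a replicate block, and leaving out each library. The fit was tested on simulated data. Replicates of a group differed by more than counting noise (chi-square per degree of freedom 1.72 to 2.9 over genes with at least 10 reads).

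The members and gene lists were chosen with earlier results of these data known. Named genes were all members, all ligands, up to 4 tested genes of the smallest p per list, and the 3 most alike in pattern to each of 3 members. Positions and exon overlaps came from GENCODE M21, and near-identical 3′ ends from blastn 2.17.0 (last 300 bases, 95% identity over 100 bases). Some genes that this rule names are not reported here.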

Additional observations from a re-analysis of the deposited data

How the results depend on the processing

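The receptors called lower numbered 5 in limma and 4 to 6 over the 16 alternatives, and 0 were called higher in each. Slamf6 (in the 15 alternatives that tested it), Cd27, Cd2 and Cd28 were called lower in each. The receptor medians were -0.35 to -0.19. Genes called higher numbered 1701 (952 with DESeq2, 1322 to 1582 on leaving out 1 library). Genes called lower numbered 1313 (1011 to 1207 on leaving out 1 library, 1017 to 1557 over the other alternatives). Lower calls outnumbered higher ones with TMM (1554 and 1428), RLE (1531 and 1451), edgeR (1557 and 1443), DESeq2 (1017 and 952) and limma-voom (1520 and 1435). Of 125 companion genes tested, those of the other lists, 10 were called higher (DESeq2 3, and 6 to 9 on leaving out 1 library). Lower calls numbered 33 (26 to 34 on leaving out 1 library, 28 to 41 over the other alternatives), and no called gene reversed. The cause of the DESeq2 counts was not tested. Pairing by replicate number was not seen, but 3 libraries per group cannot exclude it. Same-numbered deviations correlated at 0.00025 to 0.0209, and not every library correlated best with its own number. The highest correlation, 0.0242, was between Young replicate 3 and Aged replicate 2, whose file heads its column as replicate 3. A fit with the replicate number as a block called 1725 genes higher, 1336 lower, and 5 receptors lower. Cd80 (-1.13) and Il2ra (-0.20) were called with this block. Depth limits Slamf6, Tigit and most ligands, where 1 read was worth 0.359 to 0.512 CPM.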
